A study of Homo sapiens with 9 samples.

Results

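The 6 chemokine genes followed here across the series are CCL3, CCL4, their near-identical neighbouring copies CCL3L3 and CCL4L2, CXCL8 and CXCL10. They are the rows of the deposited count table that carry these 6 symbols, out of 60656 genes listed, and each symbol was found once. The cells were RIVA, an established line grown from the activated B-cell type of diffuse large B-cell lymphoma (ABC-DLBCL) and infected with a pLVX-TetOne lentiviral construct that doxycycline switches on. Groups differed in the insert, which was BCL10 S136X (a truncated protein), BCL10 R58Q (a single amino acid change) or absent in the empty vector, listed as BCL10 wild type. Each group had 3 replicates, 9 libraries in all, collected 24 h after doxycycline. The treatment protocol gives the dose as 200 ng/mL, the sample characteristics give the same number per µL, and the vector cells received doxycycline as well. All groups kept their own BCL10 gene, so the mutants acted beside the endogenous protein, and added wild-type BCL10 was not analysed here.

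Chemokines are small secreted proteins that bind G protein-coupled receptors and direct the movement of leukocytes. CCL3 and CCL4 (MIP-1α and MIP-1β) are inflammatory CC chemokines, and CCR1 is a receptor of CCL3. B cells release both after antigen-receptor signalling, and they draw T cells and monocytes. CXCL8 (IL-8) attracts neutrophils through CXCR1 and CXCR2. CXCL10 (IP-10) attracts activated T and NK cells through CXCR3 and is a classical interferon-induced gene. BCL10 acts with MALT1 in the CBM complex, which carries antigen-receptor signals to NF-kB. CXCL8 and CXCL10 are both known NF-kB target genes.

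The 4 CC genes lie together on chromosome 17 and the 2 CXC genes lie apart on chromosome 4 (GRCh38, intervals as the table lists them). CCL3 (ENSG00000277632.2) spans chr17:36088256-36090169 on the minus strand and CCL4 (ENSG00000275302.2) chr17:36103827-36105621 on the plus strand. CCL3L3 (ENSG00000276085.1) spans chr17:36194869-36196758 on the minus strand and CCL4L2 (ENSG00000276070.5) chr17:36210924-36212878 on the plus strand, so the 2 pairs have the same order and orientation. The CCL3L3 identifier is called CCL3L1 in GENCODE release 29, and genes were therefore matched by identifier. CXCL8 (ENSG00000169429.11) spans chr4:73740541-73743716 on the plus strand and CXCL10 (ENSG00000169245.6) chr4:76021118-76023497 on the minus strand. The 250 bases before the RefSeq start site (GRCh38.p14) were available for 4 of the 6 genes and are shown because they set apart the kinds of gene compared here, a CC gene with its copy, CXCL8 and CXCL10. They cover chr17:36090144-36090393 for CCL3, whose most upstream of 3 listed start sites was taken, chr17:36196759-36197008 for CCL3L3, chr4:73740319-73740568 for CXCL8 and chr4:76023498-76023747 for CXCL10. Each is printed 5′ to 3′ on the gene's own strand, with motif matches in capitals.
CCL3: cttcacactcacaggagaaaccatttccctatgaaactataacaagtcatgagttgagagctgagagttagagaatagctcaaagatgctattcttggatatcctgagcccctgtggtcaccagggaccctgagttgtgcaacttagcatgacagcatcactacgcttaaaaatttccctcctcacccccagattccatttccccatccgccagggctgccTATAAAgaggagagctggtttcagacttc
CCL3L3: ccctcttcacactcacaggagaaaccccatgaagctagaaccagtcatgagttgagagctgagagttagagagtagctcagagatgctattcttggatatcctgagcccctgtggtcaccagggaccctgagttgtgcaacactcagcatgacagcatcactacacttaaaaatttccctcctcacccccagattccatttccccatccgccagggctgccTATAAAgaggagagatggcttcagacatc
CXCL8: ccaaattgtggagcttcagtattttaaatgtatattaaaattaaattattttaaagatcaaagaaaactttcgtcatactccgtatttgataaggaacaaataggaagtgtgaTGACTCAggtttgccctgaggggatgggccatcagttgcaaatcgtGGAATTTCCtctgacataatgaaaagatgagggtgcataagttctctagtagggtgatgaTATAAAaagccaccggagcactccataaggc
CXCL10: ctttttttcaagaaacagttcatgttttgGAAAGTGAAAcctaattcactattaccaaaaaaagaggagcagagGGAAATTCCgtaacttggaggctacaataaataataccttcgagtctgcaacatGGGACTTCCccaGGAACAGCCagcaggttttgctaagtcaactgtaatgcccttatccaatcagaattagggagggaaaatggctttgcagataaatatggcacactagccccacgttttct

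The motifs searched, on both strands, were the kB letters GGNNNTTCC, an interferon response element (GAAA, any 2 bases, GAAA), the AP-1 letters TGANTCA and the TATA letters TATAAA. Among 35116 RefSeq promoter windows of this length, 17.1% held the kB letters, 3.02% the interferon element, 6.57% the AP-1 letters and 10.7% the TATA letters. The CXCL10 window held the kB letters at 3 places and the interferon element once, at positions -221 to -212 from the start site. Its kB matches were GGAAATTCC at -176 to -168, which matches on both strands, GGGACTTCC at -122 to -114, and GGAACAGCC at -110 to -102, whose match lies on the opposite strand. The CXCL8 window held 1 kB match, GGAATTTCC at -91 to -83 (both strands), the AP-1 match TGACTCA at -137 to -131 and TATAAA at -31 to -26. The CCL3 and CCL3L3 windows held TATAAA at -29 to -24 and none of the other letters. CCL3 and CCL3L3 were identical at 233 aligned positions, with 11 mismatches and 12 gap positions (91% identity), whereas CXCL8 and CXCL10 shared 49.2%. A match describes letters in the window and not a bound site. The lack of a match in the CCL3 and CCL3L3 windows says nothing of other sequence near these genes or of other forms of a motif.

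Libraries held 28047713 to 33122267 counts, and levels are given as CPM, counts scaled to equal library totals with TMM factors that correct for composition. BCL10 was read first as a check of the labels, and its counts were 885 to 1268 in vector and 9838 to 14293 in the 6 mutant libraries. This sets vector apart from the mutants but cannot tell S136X from R58Q, whose counts overlapped. The column names carry 2 dates, 1 for vector and S136X and a later 1 for all R58Q libraries, so date and R58Q cannot be told apart. S136X and vector share a date. All 7 B-cell markers checked (among them MS4A1, CD79A, CD79B, PAX5, CD22, BLK) exceeded a mean of 1 CPM in every group, and 3 of 4 markers of the activated type did, the exception being CCND2. Of 7 monocyte and macrophage markers none reached 1 CPM, and their summed level was 0.668 to 0.78 CPM in vector, 0.373 to 0.683 in S136X and 0.664 to 0.679 in R58Q. The 4 neutrophil markers summed to at most 0.211 CPM in any library, and the 8 T and NK cell markers to 2.75 to 6.75 CPM, of which CD8A alone exceeded 1 CPM. Of 6 endothelial and fibroblast genes 3 (PECAM1, COL1A1, COL1A2) exceeded 1 CPM, and the list summed to 22.7 to 26.6 CPM in vector, 21.3 to 27.9 in S136X and 24.7 to 30.3 in R58Q. Within that list COL1A1 rose in both mutants (log2 fold change 1.65, adjusted p = 0.00648, and 1.77, adjusted p = 0.00263, edgeR) and PECAM1 fell in S136X (-0.75, adjusted p = 0.0442), so the sum hides members that moved apart, and their part in the results was not tested. In RNA from bulk cultures, more cells that express a gene and more RNA per cell cannot be told apart.

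Compared per length of exon, CCL3 was the most abundant of the 6 in vector cells at 6.4 ± 1.2 CPM per kb (SD, n = 3), and its libraries did not overlap those of CCL4L2, the next in order. CCL4L2 (3.96 ± 1.25), CCL4 (3.30 ± 1.14), CXCL10 (3.26 ± 1.15) and CCL3L3 (1.93 ± 0.632) followed, each overlapping its neighbour in this order, and CXCL8 stood below all at 0.172 ± 0.0724 CPM per kb. In S136X cells the same 5 genes led, from CCL3 at 11 ± 2.92 to CCL3L3 at 4.59 ± 1.66 CPM per kb, and every neighbour in the order overlapped. In R58Q cells CXCL10 (16.2 ± 7.55) and CCL3 (15.5 ± 0.934) led with overlapping libraries, and no library of the next gene reached those of CCL3. CCL4L2 (9.45 ± 2.29), CCL4 (6.55 ± 1.86) and CCL3L3 (5.94 ± 0.96 CPM per kb) came next, and CXCL8 was again lowest at 0.646 ± 0.328. By this measure CXCL10 followed CCL4 in vector and stood level with CCL3 in R58Q. The length joins all annotated exons of a gene and can exceed the spliced message. For CCL4 it is 2032 bases, more than the gene's listed interval. The order of the genes therefore depends in part on the annotation, while the groups are compared at the same length.

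**Figure D1:**
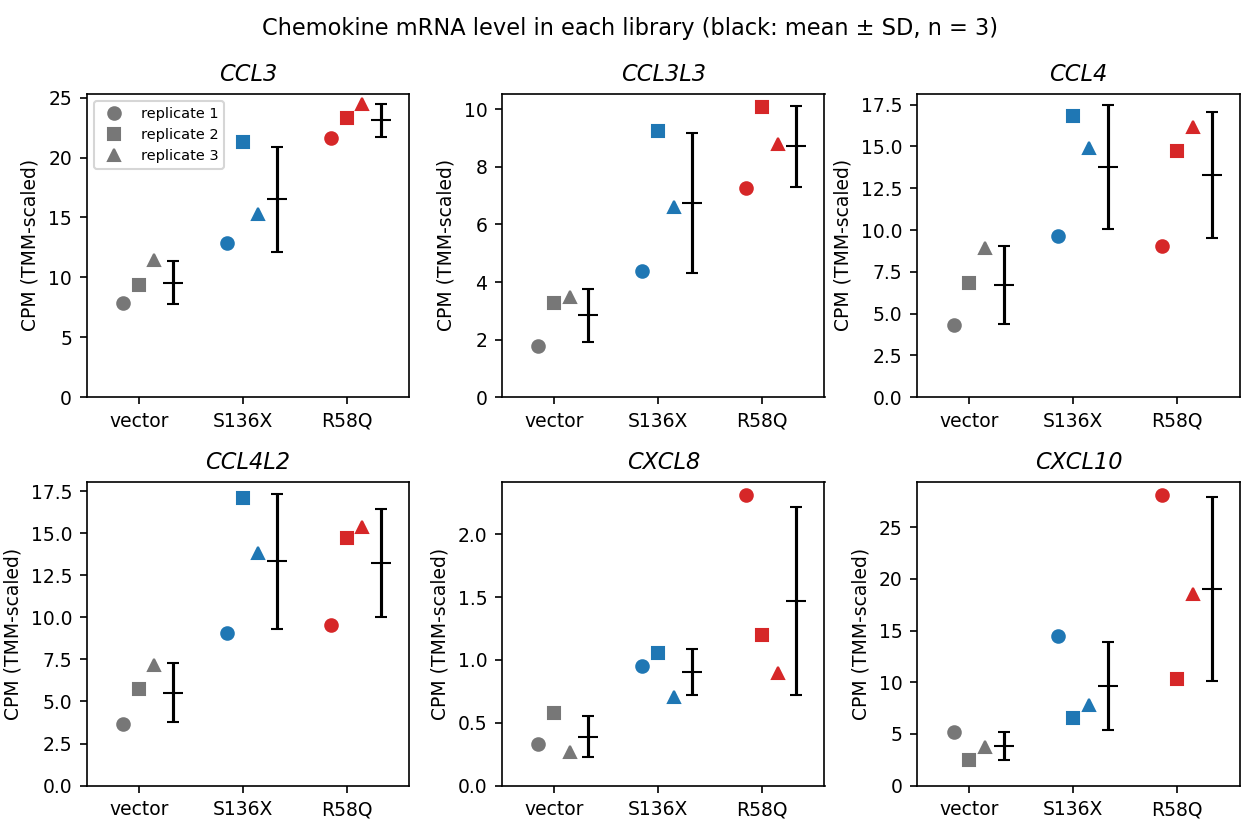
Level of each chemokine gene in CPM (vertical axis, starting at 0) in the 9 libraries, by group (horizontal axis). Symbols give the replicate number, and black bars the mean ± SD of 3 libraries. For each gene every mutant library lies above every vector library, narrowly so for CCL4, where R58Q replicate 1 stands at 9.02 CPM and vector replicate 3 at 8.95.

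The messages of all 6 genes stood higher in every library of either mutant than in any vector library. Non-overlap of this direction was seen in 16% of all genes tested for S136X and in 21% for R58Q. A gene was called changed when it differed by 1.5-fold or more with an adjusted p below 0.05 (edgeR's quasi-likelihood test, Benjamini-Hochberg adjustment over all genes tested). In S136X against vector, 5 of the 6 rose by this rule, where 2.05% of the 15530 genes tested were called higher. CXCL8 was the exception. With the replicate number as a block all 6 passed, where 2.9% of genes were called higher. In R58Q against vector all 6 rose, where 4.09% of 15435 genes were called higher, and all 6 again with the block (4.79%). The median log2 fold change of the 6 genes was 1.23 in S136X and 1.44 in R58Q, beside -0.02 and -0.03 over all genes tested. The vector libraries serve both comparisons, so these values are not independent of each other. The S136X count was the less stable one. It was 0 of 6 without vector replicate 2 or without S136X replicate 3, 2 without vector replicate 1, 3 without vector replicate 3, 4 without S136X replicate 1 and 1 without S136X replicate 2.

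Of the CC genes, CCL3 had the lowest fold in S136X and the tightest values in R58Q. Its levels in replicates 1 to 3 were 7.86, 9.38 and 11.5 CPM in vector, 12.9, 21.3 and 15.3 CPM in S136X, and 21.7, 23.3 and 24.4 CPM in R58Q. The 3 groups thus stood apart from one another, S136X replicate 2 coming nearest to R58Q. The log2 fold change against vector was 0.79 in S136X (SE 0.202, adjusted p = 0.0415) and 1.27 in R58Q (SE 0.139, adjusted p = 0.000906), which corresponds to 1.73-fold and 2.41-fold. The call in S136X did not pass without vector replicate 1, vector replicate 2, S136X replicate 2 or S136X replicate 3 (0.57 to 0.85, adjusted p 0.081 to 0.145), whereas the call in R58Q passed whichever replicate was omitted.

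CCL3L3 encodes a secreted protein that differs from CCL3 at a few residues. It had 59, 108 and 118 counts in vector, 129, 298 and 188 in S136X, and 217, 304 and 285 in R58Q. These are 1.77 to 3.46 CPM in vector, 4.37 to 9.25 CPM in S136X and 7.27 to 10.1 CPM in R58Q, with replicate 1 lowest in each group. The gene rose by a log2 fold change of 1.25 in S136X (SE 0.319, adjusted p = 0.0415) and of 1.62 in R58Q (SE 0.253, adjusted p = 0.00425). In S136X it passed only with all libraries or without S136X replicate 1, and each of the other 5 omissions gave 0.97 to 1.43 (adjusted p 0.0593 to 0.112).

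CCL4 and its copy CCL4L2 reached about equal levels in the 2 mutants. CCL4 stood at 4.32, 6.83 and 8.95 CPM in vector, 9.63, 16.8 and 14.9 CPM in S136X, and 9.02, 14.7 and 16.2 CPM in R58Q. CCL4L2 stood at 3.69, 5.74 and 7.16 CPM in vector, 9.08, 17.1 and 13.8 CPM in S136X, and 9.52, 14.7 and 15.4 CPM in R58Q. In both genes replicate 1 was the lowest library of each group. Against the vector library of the same number, CCL4 was 1.66 to 2.47 times as high in S136X and 1.81 to 2.15 times in R58Q, and CCL4L2 1.93 to 2.98 times and 2.14 to 2.58 times. Both rose in both mutants, with adjusted p of 0.0474 and 0.0433 for CCL4 and of 0.0237 and 0.0133 for CCL4L2 in S136X and R58Q (edgeR). The CCL4 calls lay near the threshold. The one in S136X did not pass without vector replicate 1 or 2 or without S136X replicate 2 or 3 (adjusted p 0.0808 to 0.15), and the one in R58Q not without vector replicate 1 or 2 or without R58Q replicate 2 or 3 (0.0779 to 0.131). CCL4L2 did not pass in S136X without vector replicate 2, S136X replicate 2 or S136X replicate 3 (0.0667 to 0.0942), nor in R58Q without vector replicate 2 (0.0537).

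CXCL10 had the highest fold of the 6 genes in both mutants as a point estimate, and its 95% intervals (0.57 to 2.10 in S136X and 1.45 to 3.16 in R58Q) overlapped those of the other 5 genes. Its levels in replicates 1 to 3 were 5.22, 2.52 and 3.76 CPM in vector, 14.5, 6.58 and 7.83 CPM in S136X, and 28.1, 10.4 and 18.5 CPM in R58Q. Here replicate 1 was the highest library of each group and replicate 2 the lowest, the reverse of what the CC genes showed for replicate 1. The log2 fold change was 1.34 in S136X (SE 0.337, adjusted p = 0.0397) and 2.31 in R58Q (SE 0.374, adjusted p = 0.00494), or 2.53-fold and 4.96-fold. Between libraries of the same number the ratio to vector was narrower than the levels, 2.78, 2.61 and 2.09 in S136X and 5.38, 4.11 and 4.93 in R58Q. The S136X change did not pass without vector replicate 2, vector replicate 3, S136X replicate 1 or S136X replicate 3 (0.91 to 1.48, adjusted p 0.0568 to 0.144), and the R58Q change passed whichever replicate was omitted. ART3, a gene whose interval covers CXCL10, had 0 to 6 counts in any library.

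CXCL8 was the rarest of the 6 messages. It had 11, 19 and 9 counts in vector, 28, 34 and 20 in S136X, and 69, 36 and 29 in R58Q, that is 0.39 ± 0.165, 0.903 ± 0.181 and 1.47 ± 0.747 CPM (SD, n = 3). R58Q replicate 1 alone held over 2 CPM (2.31), and S136X replicate 3 came nearest to vector. The log2 fold change in S136X was 1.21 with an SE of 0.353 and a 95% interval of 0.41 to 2.01, and it missed the threshold (adjusted p = 0.0637). With the replicate number as a block the change was 1.22 and passed (adjusted p = 0.0178). In R58Q CXCL8 rose by 1.90 (SE 0.447, adjusted p = 0.0207), which did not pass without vector replicate 1 (adjusted p = 0.0522) or vector replicate 3 (0.0734).

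**Figure D2:**
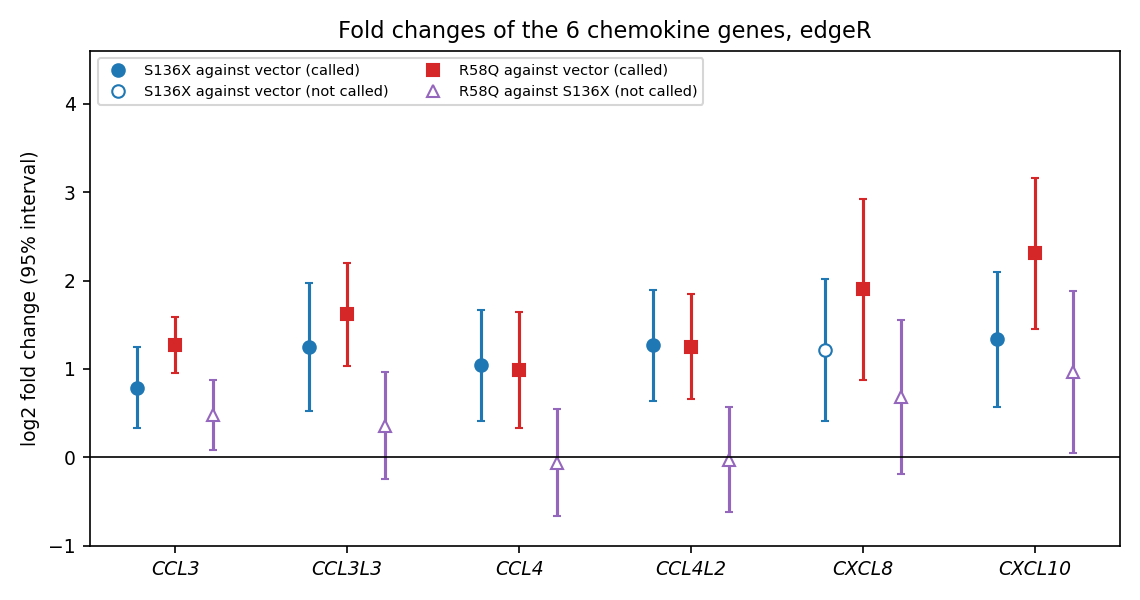
Log2 fold change (vertical axis) of the 6 chemokine genes in 3 comparisons, with 95% intervals from edgeR. Filled symbols were called changed. The intervals for R58Q against S136X of CCL4 and CCL4L2 lie around 0 and that of CXCL10 reaches from 0.05 to 1.88.

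The mutants were then compared with each other directly. None of the 6 genes was called, where 0.27% of 15195 genes were called higher and 0.165% lower, and 2 of the 6, CXCL10 and CCL3, had an unadjusted p under 0.05 in the edgeR test. The libraries of CCL3 alone did not overlap, being higher in R58Q, as in 8.76% of all genes tested. For CXCL10 the log2 difference of R58Q from S136X was 0.97 (SE 0.395, 95% interval 0.05 to 1.88, adjusted p = 0.425), and R58Q was 1.94, 1.57 and 2.37 times as high as the S136X library of the same number. With the replicate number as a block the difference was 0.95 and passed (adjusted p = 3.28e-07), and it was then the only one of the 6 genes called, where 1.36% of genes were called higher. For CCL3 the difference was 0.48 (SE 0.172, 95% interval 0.08 to 0.87, adjusted p = 0.354). With the block its adjusted p was 0.000844 and that of CCL3L3 0.0231, both under 1.5-fold.

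CCL4 and CCL4L2 showed no detectable difference between the mutants. The log2 difference was -0.06 for CCL4, with a 95% interval of -0.67 to 0.54, and -0.03 for CCL4L2, with an interval of -0.62 to 0.57. These intervals still allow R58Q to be 1.5-fold lower, though not 1.5-fold higher, and the sign of both values turned when S136X replicate 2, S136X replicate 3 or R58Q replicate 1 was left out. CXCL8 differed by 0.68 (95% interval -0.19 to 1.55, adjusted p = 0.591) and CCL3L3 by 0.36 (interval -0.25 to 0.96, adjusted p = 0.725).

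The 4 CC genes are 2 pairs of copies, so the split of reads within each pair was examined. In the longest GENCODE transcript of each, 21.5% of 31-base windows of CCL3 also occurred in CCL3L3 and 26.9% of those of CCL4L2 in CCL4, whereas CXCL8 and CXCL10 shared none with any gene. At the read length of 100 bases, no window of these transcripts was common to CCL3 and CCL3L3. In the other pair, 2.03% of the windows of CCL4 and 4.06% of those of CCL4L2 occurred in the partner. The longest transcript can hold intron sequence, as the CCL4 one of 1774 bases is about as long as the gene's listed interval. These shares therefore do not measure how much the spliced messages have in common. How reads that fit both copies were counted is not given in the sources used here, so the split within a pair is less certain than its sum. Adding the copies before the fit lost none of the calls of the 2 pairs.

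CCL3L3 made up 18.4%, 25.9% and 23.2% of the counts of its pair in vector replicates 1 to 3, 25.3%, 30.3% and 30.2% in S136X, and 25.1%, 30.2% and 26.5% in R58Q. The group means were 22.5% ± 3.81, 28.6% ± 2.81 and 27.3% ± 2.65 (SD, n = 3), and vector replicate 2 lay within the range of both mutants. CCL4L2 made up 46.1%, 45.7% and 44.4% of its pair in vector, 48.6%, 50.4% and 48.2% in S136X, and 51.4%, 50.1% and 48.7% in R58Q. Here no mutant library overlapped the vector libraries, but the single-library intervals were wider than the gap. In vector replicate 1 the 95% Wilson interval ran from 40.2% to 52.1%, which covers counting error only.

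A second ratio, chosen after the values were seen, set the CCL4 pair against the CCL3 pair within each library. CCL4 plus CCL4L2 amounted to 0.832, 0.993 and 1.08 times CCL3 plus CCL3L3 in vector, 1.08, 1.11 and 1.31 times in S136X, and 0.641, 0.883 and 0.949 times in R58Q. The ratio was thus lower in R58Q than in S136X in 3 of 3 same-numbered pairs, and no R58Q library reached any S136X library. The exact two-sided permutation p was 0.1 for R58Q against S136X and for S136X against vector, the smallest that 3 against 3 allows, and 0.4 for R58Q against vector. Counts are not divided by length here, so the ratio compares groups and not the 2 pairs.

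**Figure D3:**
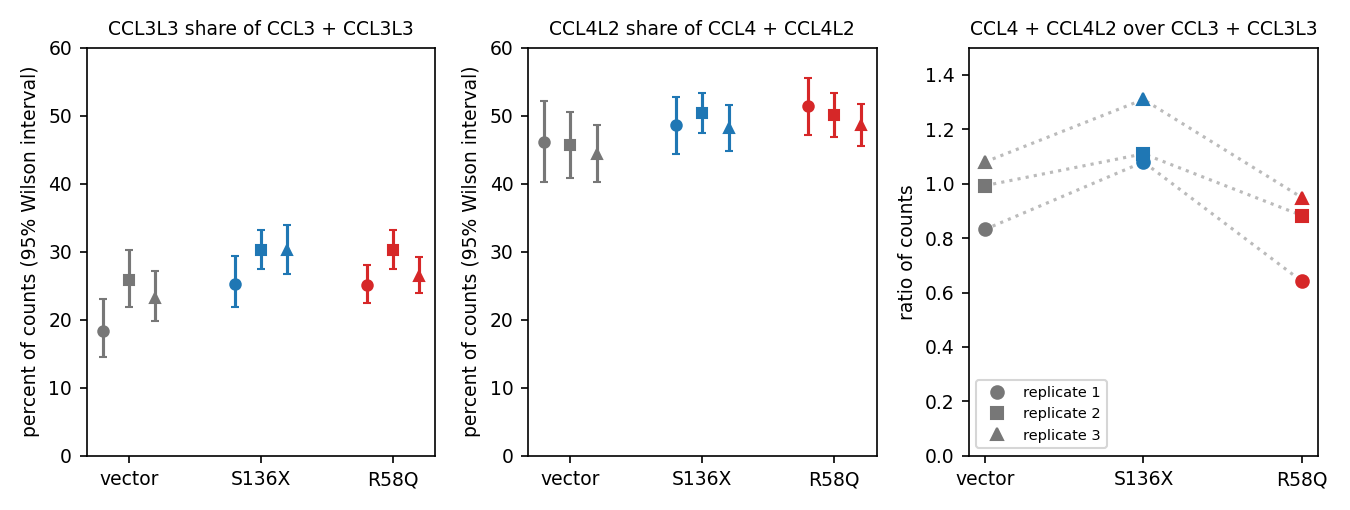
Share of each pair's counts on the copy gene in percent, with 95% Wilson intervals (left and middle), and the ratio of counts of the CCL4 pair to the CCL3 pair (right), by group. Symbols give the replicate number, and dotted lines join libraries of the same number. The CCL4L2 share is 44.4% to 46.1% in vector and 48.2% to 51.4% in the mutants, and each line of the ratio falls from S136X to R58Q.

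Replicates of the same number deviated together, and the CC genes and CXCL10 did so in opposite directions. On the log2 CPM scale, replicate 1 lay above its group mean for CXCL10 by 0.50 in vector, 0.67 in S136X and 0.68 in R58Q. For CCL4 it lay below by -0.56, -0.48 and -0.51, and for CCL3, CCL3L3 and CCL4L2 replicate 1 was likewise the lowest library of all 3 groups. Replicate 2 was the lowest for CXCL10 in each group, at -0.53, -0.46 and -0.76. CXCL8 followed neither, with replicate 2 highest in vector and in S136X and replicate 1 in R58Q. This movement is shared by numbered libraries and is not a difference between constructs. The labels do not say what the numbers stand for. Fitting the number as a block turned 2 results of the 6 genes into calls, CXCL8 in S136X and CXCL10 between the mutants.

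**Figure D4:**
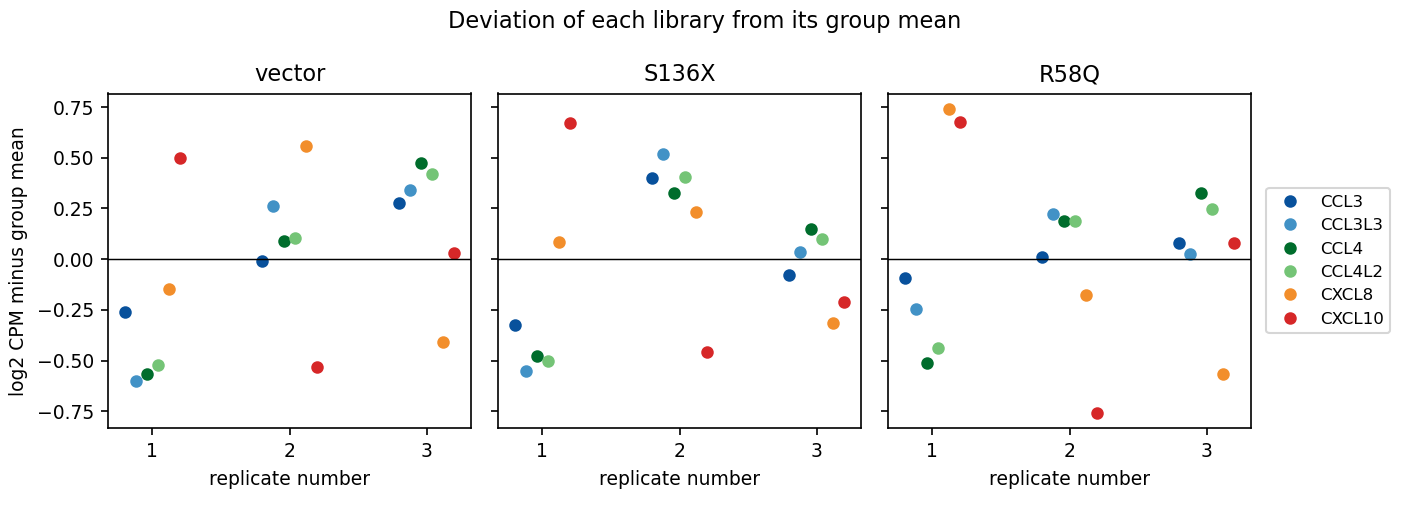
Log2 CPM of each library minus the mean of its group (vertical axis) for the 6 genes, by replicate number (horizontal axis, points shifted sideways for legibility), in vector, S136X and R58Q. In replicate 1 CXCL10 lies at 0.50 to 0.68 and CCL4 at -0.56 to -0.48 in all 3 groups.

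Genes whose levels followed each member most closely over the 9 libraries were listed by Pearson's r of log2 CPM among 12253 protein-coding genes, as a description. All points carry the same group steps and share their libraries, which raises such values. CCL4 and CCL4L2 were each other's nearest gene (r = 0.989), and both had HLA-DPA1, an MHC class II chain, in second place (0.98 and 0.988). CCL3L3 was nearest to EPSTI1 (0.991), HLA-DQA1 (0.986) and REPS1 (0.981), and CCL3 to FERMT3 (0.986), GPR183 (0.985), an oxysterol receptor that guides B cells, and FBXO6 (0.981). The third gene was SCML2 (0.974) for CCL4 and PLEKHG1 (0.977) for CCL4L2. CXCL10 was nearest to DNAJC5B (0.984), RPRD1A (0.979) and TAF13 (0.977), and CXCL8 to LSM5 (0.974), RBIS (0.953) and VMP1 (0.951).

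Set among the chemokine ligands as a whole, the 6 genes were a large part by number, and not by level, of those with enough counts. CCL22 had mean levels of 32.3, 235.5 and 754.1 CPM in vector, S136X and R58Q. CCL3, the highest of the 6 in each group by CPM, had 9.56, 16.5 and 23.1 CPM. Of 46 ligand genes found in the table, 12 passed the filter on low counts in S136X against vector and 13 in R58Q against vector. Of these, 8 and 9 rose and 0 fell, with median log2 fold changes of 1.23 and 1.27, where 2.05% and 4.09% of all genes were called higher. The 6 genes above are part of these counts, which the replicate block raised to 9 and 11. The others that rose were CCL22 and CCL17, which bind CCR4, and CX3CL1, the membrane-bound ligand of CX3CR1. CCL17 had log2 fold changes of 3.56 and 4.22 (adjusted p = 5.32e-05 and 4.75e-05, edgeR) in S136X and R58Q. CCL22 had 2.87 and 4.54 (0.00258 and 0.000272) and CX3CL1 1.96 and 2.36 (0.00314 and 0.000418). Each point estimate was above that of any of the 6 genes in the same mutant. The 95% intervals of CX3CL1 (1.38 to 2.53 and 1.86 to 2.87) overlapped those of CXCL10, as did that of CCL22 in S136X (2.05 to 3.68). CXCL9, CXCL16 and CCL28 were not called in either mutant, nor was CCL5, which was tested in R58Q only. With the block CXCL9 (0.63, adjusted p = 0.0101) and CCL5 (1.18, adjusted p = 0.032) passed in R58Q, and both are among the 11 above. CCL5 needed its R58Q libraries to pass the filter on low counts, so higher counts there were a condition of testing it. CXCL9, a CXCR3 ligand like CXCL10, had log2 fold changes of 0.14 (95% interval -0.72 to 0.99) and 0.69 (-0.23 to 1.61), and CXCL11, the remaining CXCR3 ligand, had 0 to 9 counts. The value of CXCL16, a scavenger receptor and CXCR6 ligand, was -0.33 in S136X (adjusted p = 0.0595) and -0.51 in R58Q (adjusted p = 0.0173, under 1.5-fold).

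**Figure D5:**
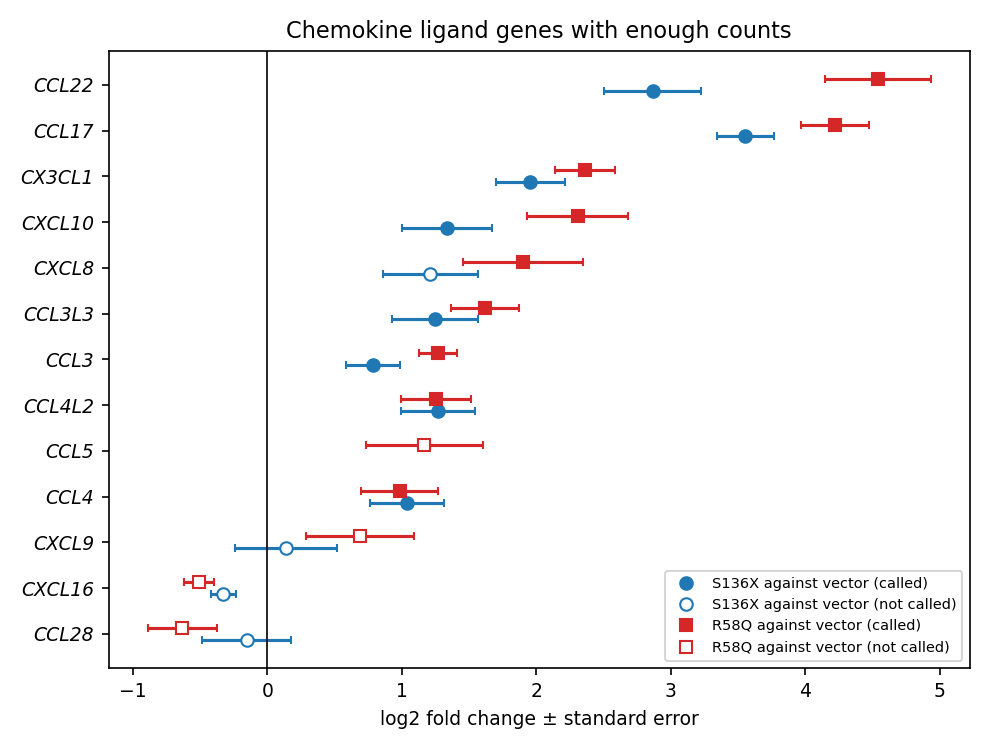
Log2 fold change ± standard error (horizontal axis) of each chemokine ligand gene with enough counts, in S136X (circles) and R58Q (squares) against vector. Filled symbols were called. The point estimates of CCL22, CCL17 and CX3CL1 lie above those of the 6 genes followed here, that of CX3CL1 in R58Q only just above CXCL10. CXCL16 and CCL28 lie below 0 without being called.

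Receptors of the 6 chemokines were rare or at the floor of detection in the cells that made them. CCR1 had 0 to 3 counts in any library, CXCR1 0 to 1 and CXCR2 0 to 2. CXCR3, the receptor of CXCL10, had 62, 50 and 49 counts in vector, 22, 45 and 23 in S136X, and 34, 35 and 33 in R58Q. It was lower in every mutant library than in any vector library, as were 15.4% of all genes tested in S136X and 19.5% in R58Q, but its log2 fold changes of -0.69 (SE 0.281, adjusted p = 0.156) and -0.53 (SE 0.203, adjusted p = 0.096) were not called. Of 18 other chemokine receptors, 6 were tested in S136X, where CCR7, the lymph-node homing receptor, rose (1.05) and CXCR4, the CXCL12 receptor, fell (-0.82), where 2.05% of all genes were called higher and 1.82% lower. In R58Q 3 of 7 rose, CCR7 (1.85), CCR4 (2.84, from 2 to 5 counts in vector to 14 to 32) and ACKR3 (0.66), and CXCR4 fell (-0.66). Of all genes, 4.09% were called higher there and 3.54% lower. CCR4 passed the filter on low counts only through its R58Q libraries and was not tested in S136X against vector. A high level in R58Q was thus a condition of testing it.

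CXCL10 is known as a target of interferon and of NF-kB, so a list of each was read from the same fits. Of 14 tested genes of the interferon-gamma axis, 5 rose in each mutant and 0 fell, with median log2 fold changes of 0.29 and 0.61, where 2.05% of all genes in S136X and 4.09% in R58Q were called higher. Among them TAP1, a peptide transporter of antigen presentation, rose by 1.15 in S136X and 2.16 in R58Q, SOCS1, a brake on JAK signalling, by 0.97 and 2.19, IRF1 by 0.79 and 2.03, and CIITA, the master regulator of MHC class II genes, by 1.01 and 1.23 (adjusted p 8.41e-05 to 0.0493 over these values, edgeR). IFNG had at most 1 count in any library. Of 24 NF-kB target genes, 23 were tested in S136X, of which 19 rose and 0 fell (median 0.99), and 24 in R58Q, of which 21 rose and 1 fell (median 1.44), against the same shares of all genes. EBI3 (2.85) and LTA (2.61) had the highest called values in S136X and CD83 (0.67) and BIRC3 (0.78) the lowest. In R58Q LTA rose by 4.30, IL6 had 63 to 91 counts where the vector libraries had 0, RELB rose by 0.68, and BCL3, an atypical IkB protein, fell (-0.61). IL6 passed the filter on low counts only through its R58Q libraries, here and against S136X, and was not tested in S136X against vector. In R58Q against S136X, 8 NF-kB target genes were called higher and 0 lower, where 0.27% of all genes were called higher, among them LTA (1.68), CD40 (0.81) and BCL2A1 (0.76), and 0 genes of the interferon-gamma list were called.

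Short-lived chemokine messages are bound by AU-rich element and stem-loop binding proteins, and 13 such mRNA decay and stability factors were tested. ZC3H12C, a Regnase family member, rose in S136X (1.21) and R58Q (1.69), and ZFP36L1 rose in R58Q (0.82), that is 1 and 2 of the 13, where 2.05% and 4.09% of all genes were called higher. The median log2 fold change of the 13 was 0.09 in S136X and 0.11 in R58Q, and 12 and 11 of them were not called.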

How the data were processed

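RNA-seq of 9 RIVA libraries was read from 1 deposited table. The authors deposited whole-number read counts per gene, which were used, and beside them a normalized signal (each library's counts over a factor of its own), which was not. Submitters' processing notes name cutadapt, STAR, Picard and hg38. The labels give mRNA libraries sequenced on a NovaSeq in 2 runs whose reads were combined. The counting program, annotation and strand setting are not given in the sources used here. 0 columns lacked a sample. The paper calls the samples biologic replicates, and nothing says that they came from separately infected cultures, so p-values measure the spread between these samples.

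The members, gene lists and tests were chosen with earlier results of these data known. Each comparison used its 6 libraries in R 4.3.3 with edgeR 4.0.16 (filterByExpr, minimum count 10 and minimum total 15; TMM; quasi-likelihood F test; Benjamini-Hochberg adjustment). Genes were called at an adjusted p under 0.05 and 1.5-fold. Log2 CPM used a prior count of 2, and exon lengths were the union of all exons of a gene in GENCODE release 29. Wilson intervals (95%) and the limit of 3 counts for a count of 0 cover counting error only. Depth per library sets the precision of the rare CXCL8 message in particular. The fits without a block were also run on simulated counts that held no effect of replicate number. That run does not cover the replicate block, and no result here rests on it.

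Named were the 6 genes, BCL10, every chemokine ligand called, every receptor of the 6, the 2 highest and 2 lowest called genes of each further list, the 3 nearest genes of each member, and genes overlapping a member. CXCL9, CXCL11, CXCL16, CCL5, CCL28, IFNG, COL1A1 and PECAM1 are outside this rule and were chosen after their values were seen. Some genes that the rule selects are not reported here. The labels number replicates 1 to 3 in each group. Deviations from group means correlated at 0.143 to 0.626 (median 0.425) between same-numbered libraries, all above 0.1. Between libraries of different numbers they correlated at -0.459 to 0.169 (median -0.251), so the ranges overlapped. Deviations from a mean of 3 libraries sum to 0, so values above 0 for same numbers push those for different numbers below 0. The gap between the medians is thus partly built in. Vector replicate 2 was the least clearly paired, at 0.143 with S136X replicate 2 and 0.163 with R58Q replicate 2. The numbers were treated as pairing in the replicate block only, and the main fits carry no block. Alternatives were DESeq2 1.42.0, limma-voom (limma 3.58.1), upper-quartile and total-count scaling, all genes kept, a minimum of 10 counts per library (which drops CXCL8 against vector), all 9 libraries in 1 fit, protein-coding genes only, the copies summed, the replicate block, each replicate left out, and an adjusted p under 0.01, 2-fold or no fold threshold.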

Additional observations from a re-analysis of the deposited data

Results flagged for a closer look

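Several genes differed between R58Q and S136X when the difference itself was tested, with all R58Q libraries carrying the later date. In the comparison of the 6 libraries without a block (edgeR's quasi-likelihood test, Benjamini-Hochberg adjustment), the log2 difference of R58Q from S136X was 1.67 for CCL22 (adjusted p = 0.028), 1.68 for LTA (0.00419), 1.13 for EBI3 (0.0138), 0.81 for CD40 (0.00634) and 0.76 for BCL2A1 (0.0484). Of the 6 chemokine genes followed here, CXCL10 was not called in that fit (adjusted p = 0.425), and its S136X and R58Q libraries overlapped. It was called only when same-numbered libraries were blocked together, at 0.95 (3.28e-07). Values from this block, for CXCL10 and for the genes named next, treat equal numbers as pairs across dates. No label states such a pairing. With the same block, other genes that were not called without it were CCL17 (0.64, adjusted p = 1.49e-07), the receptors CCR4 (2.44, 0.00144) and CCR7 (0.78, 1.21e-09), and IRF1 (1.24, 2.03e-07), TAP1 (1.07, 3.09e-08) and SOCS1 (1.22, 7.09e-07). CCR4 passed the filter on low counts only through its R58Q libraries.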

How the results depend on the processing

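Of the 6 chemokine genes, 5 were called in S136X against vector. This became 3 with limma-voom, 2 with scaling by total counts only and 0 at an adjusted p under 0.01, and it ranged from 0 (without vector replicate 2 or S136X replicate 3) to 4 when 1 replicate was left out. The 6 called in R58Q became 3 at an adjusted p under 0.01. Chemokine ligands called in S136X numbered 8, but 5 with total counts only, 3 at an adjusted p under 0.01 and 3 to 7 with 1 replicate left out. Between the mutants, the 1 ligand called (CCL22) became 2 with DESeq2, 2 with no filter, 0 at an adjusted p under 0.01, and 0 to 1 with 1 replicate left out. With the replicate number as a block, which pairs the libraries, 3 ligands and 1 of the 6 genes were called between the mutants, CXCL8 was called in S136X, and the block changed no other call of the 6 genes. The log2 difference of R58Q from S136X turned positive without S136X replicate 2, S136X replicate 3 or R58Q replicate 1, at 0.11, 7e-04 and 0.15 for CCL4 and 0.19, 0.0058 and 0.16 for CCL4L2, and ranged from -0.26 to 0.15 and from -0.23 to 0.19 over all such omissions. The cause was not tested. CCL4 missed the threshold in both mutants with upper-quartile scaling (adjusted p = 0.0543 and 0.0535) and with total counts only (0.0646 and 0.0582). In S136X it also missed it with protein-coding genes only (0.0518), CCL3 (0.0592) and CCL3L3 (0.0529) missed it with total counts only, CCL3L3 (0.0502) and CXCL10 (0.0523) with limma-voom and CXCL10 with all 9 libraries in 1 fit (0.062), while CXCL8 passed with no filter (0.0283). At the depth of these libraries the 9 to 69 counts of CXCL8 limit what can be said of it, as does the number of 3 replicates for every gene.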

Other observations

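CXCL9 and CCL5 were read library by library after their values were seen. CXCL9, which shares its receptor with CXCL10, stood at 7.62, 3.85 and 6.81 CPM in vector replicates 1 to 3, 9.56, 3.2 and 7.34 CPM in S136X, and 13, 4.18 and 12.3 CPM in R58Q. Replicate 2 was its lowest library in each group, as it was for CXCL10, and the groups overlapped. R58Q was above the vector library of the same number in 3 of 3 pairs, and the log2 fold change passed with the replicate block (0.63, adjusted p = 0.0101, edgeR) and not without it (0.69, 0.256). CCL5, another CC chemokine, had 11, 5 and 6 counts in vector, 2, 10 and 5 in S136X, and 19, 9 and 18 in R58Q. Its log2 fold change in R58Q was 1.17 (adjusted p = 0.0897, edgeR's quasi-likelihood test) and, once the replicate number entered as a block, 1.18 (0.032). CCL5 needed its R58Q libraries to pass the filter on low counts, so these values do not come from a test blind to a high R58Q level.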
